A study of Mus musculus with 20 samples.

Results

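Marrow stromal niche genes are described here in tibiae of mice that received dexamethasone (DEX) or vehicle, with or without axial loading. They are 8 genes chosen by symbol and matched through their Ensembl identifiers, 8 of the 54446 gene rows of the deposited expected-count table: Kitl and Il7, which encode secreted or membrane-bound factors, Lepr, Pdgfra and Pdgfrb, which encode receptors, Vcam1, which encodes an adhesion molecule, and Ebf3 and Foxc1, which encode transcription factors. All 8 had enough counts to be tested in each comparison.

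In the marrow, reticular stromal cells that surround the sinusoids make the factors that hold and feed blood-forming cells. KITL, the ligand of the receptor KIT, maintains hematopoietic stem cells, and IL7 is required by developing B cells of the mouse. The cells are recognized by the leptin receptor and by PDGF receptors, they display VCAM1, which binds integrins of blood cells, and FOXC1 and EBF3 maintain them and hold back their turn toward fat and bone. The same cells are the main marrow source of the chemokine CXCL12, and they include progenitors of adipocytes and osteoblasts.

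The mice were 3-month-old male C57BL/6J animals with no engineered allele. They were injected s.c. for 5 days with DEX at 1 mg/kg or with injection water as vehicle. The left tibia was loaded at -13 N for 40 cycles per session, on days 1 and 3 by the labels (the study's methods describe a further session, with the tibiae collected within hours of the last), and the right tibia was the unloaded control, so that Vehicle_Ctrl, Vehicle_Load, DEX_Ctrl and DEX_Load are the 4 groups and each has 5 libraries. DEX_Ctrl replicate 4 was left out of all group means and tests, following the study's removal of a library it named DEX-4, and each vehicle group has a library whose number matched no label and which is called unnumbered here. The loaded and unloaded tibiae came from the same animals, but no source says that a replicate number marks a mouse.

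Library totals ran from 4641425 to 13031968 counts. Reads on olfactory and vomeronasal receptor genes, 1965 genes that bone is not known to use, were taken as a measure of background. They summed to 391 to 1364 CPM (counts scaled to library depth) in Vehicle_Ctrl, 260.5 to 932.3 in Vehicle_Load, 800.4 to 2918 in DEX_Ctrl and 1097 to 6494 in DEX_Load. The background was thus higher in every DEX_Load library than in every Vehicle_Load library. DEX_Load replicate 4 had both the lowest total and the highest background, and the fitted differences in loaded tibiae and the list counts are also given without it where it changed them by over 1.5 times or changed a call. The labels call the tissue tibia and the study's text calls it cortical bone with periosteum. No source says whether marrow or muscle was removed, and counts were found for genes of blood, bone, cartilage and muscle cells alike.

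Per kilobase of merged exons, a scale on which genes can be compared, Vcam1 and Pdgfrb had the highest levels and Il7 the lowest. In Vehicle_Ctrl, Vcam1 measured 27.4 ± 5.09 CPM per kb and Pdgfrb 25.2 ± 3.07 (SD, n = 5), and the ranges of both genes overlapped. Pdgfra followed at 16.7 ± 2.71, Lepr at 14.1 ± 1.64 and Kitl at 10.97 ± 1.69 CPM per kb, each overlapping its neighbour. Foxc1 at 7.48 ± 1.27 and Ebf3 at 5.30 ± 0.57 CPM per kb also overlapped. Il7 stood apart at 0.585 ± 0.104 CPM per kb. In every group, Il7 was the last of the 8 and did not overlap with Ebf3, and in every group the PDGF receptor beta gene and Vcam1 took the first places in an order their ranges did not separate.

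The level of Il7 was close to the background in the DEX-treated groups. Its counts were 13 to 55 per library, whereas Lepr, for example, had 240 to 1152. Relative to the receptor genes per kb, Il7 was 2.21 to 9.90 times higher in Vehicle_Ctrl, 2.39 to 16.8 times in Vehicle_Load, 1.47 to 2.7 times in DEX_Ctrl and 0.593 to 3.46 times in DEX_Load. In 2 DEX_Load libraries Il7 was therefore at or below the background, and its fold changes carry little information. Each of the other 7 genes exceeded the background in each library, and the smallest ratio among them was 2.93, for Ebf3 in DEX_Load.

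**Figure D1:**
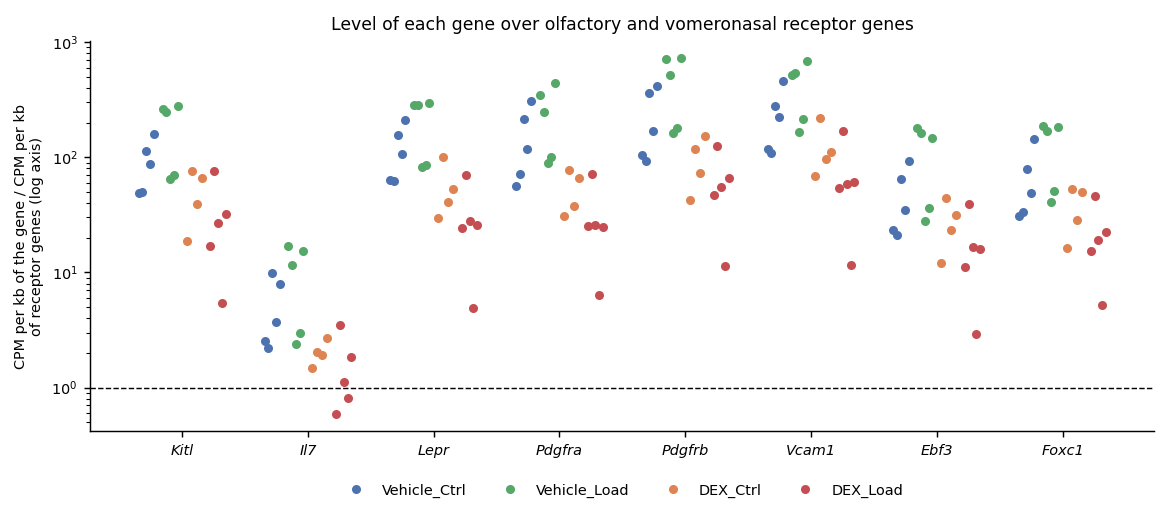
Ratio of each gene's CPM per kb to that of olfactory and vomeronasal receptor genes in each of the 19 libraries tested, on a log axis, with 1 point per library coloured by group; the dashed line marks a ratio of 1. Il7 lies near the line in both DEX-treated groups, down to 0.593 in DEX_Load, and the other 7 genes lie above it in every library.

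The spread among tibiae was wider after DEX for most of these genes. The median coefficient of variation over the 8 genes was 15.8% in Vehicle_Ctrl, 16.1% in Vehicle_Load, 23.3% in DEX_Ctrl and 32.9% in DEX_Load. Over the 10338 genes of the table with at least 10 CPM, the medians were 16.6%, 13.7%, 13.8% and 20% in the same order. The DEX_Load medians without replicate 4 were 27.2% for the 8 genes and 14.3% for all. Single libraries were low or high for many genes at once. DEX_Load replicate 4 was the lowest of its group for 6 of the 8 genes and the highest for Il7, DEX_Ctrl replicate 5 was the lowest for 6, and Vehicle_Load replicate 4 was the lowest for 7. Vehicle_Load replicate 1 was the highest of its group for 6 genes, and DEX_Ctrl replicate 2 and DEX_Load replicate 2 were each the highest for 5.

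**Figure D2:**
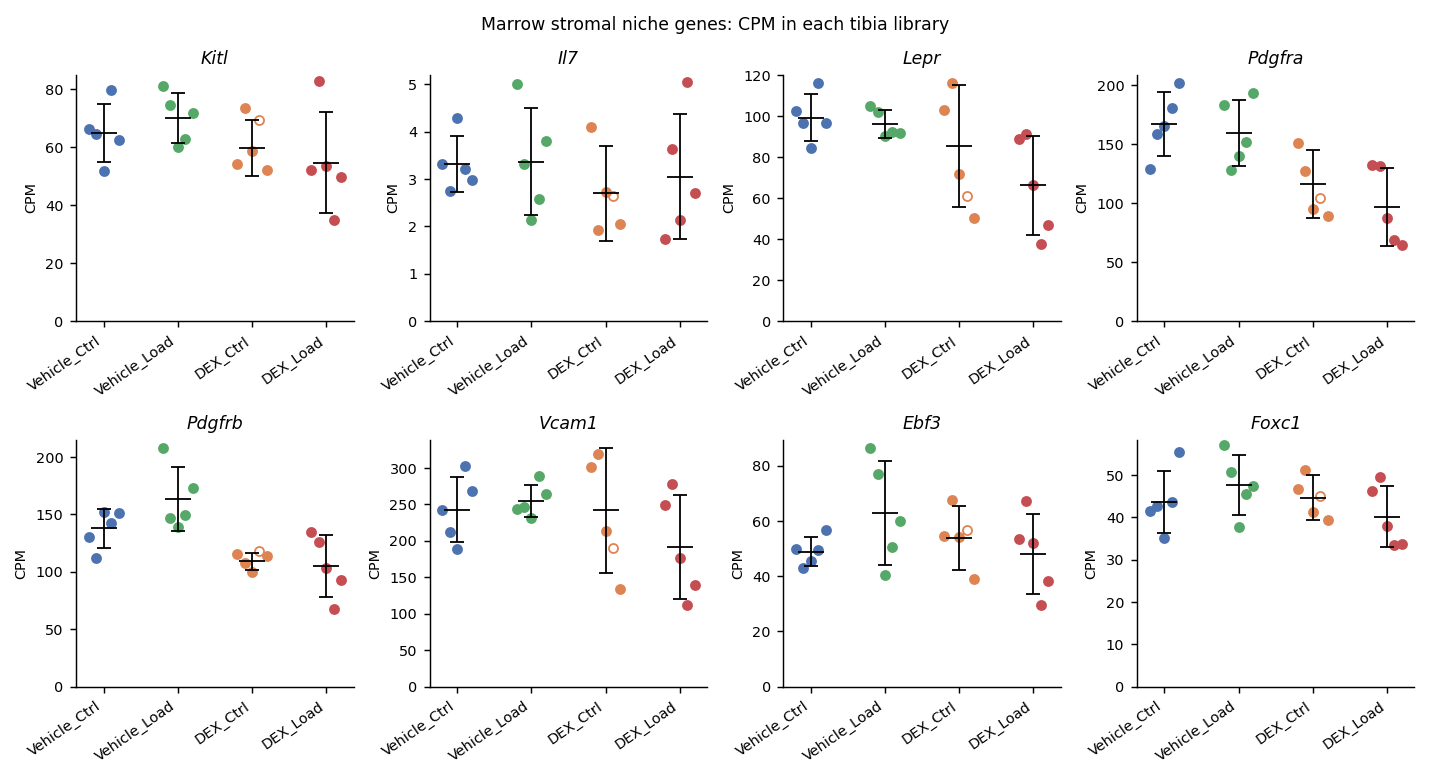
CPM of the 8 genes (vertical axes, each starting at 0) in each library of the 4 groups (horizontal axes); filled points are libraries, the open point is DEX_Ctrl replicate 4, which was not tested, and black bars give the mean ± SD of the libraries tested. Pdgfrb in DEX_Load stays below 135 CPM and in Vehicle_Load above 138, whereas the groups overlap for the other genes.

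The comparison of DEX with vehicle in loaded tibiae showed the clearest differences. The genes of both PDGF receptors fell: Pdgfra had a log2 fold change of -0.68 and Pdgfrb of -0.60. The other 6 genes lay below vehicle in the fit and did not pass the test. These were 2 of 8 genes called at an adjusted p under 0.05, while 21.3% of the 19780 genes tested were called, 12.9% as higher and 8.35% as lower. Set against a background of 21.3%, 2 calls of 8 are no result about the genes as a set. The median log2 fold change was -0.36 over the 8 genes and 0.00 over all genes tested. In bulk tissue, fewer cells of a type and less RNA per cell cannot be told apart.

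Pdgfra encodes the PDGF receptor alpha, which binds the A, B and C chains and marks mesenchymal progenitors and fibroblasts. The 5 Vehicle_Load libraries measured 128, 140, 152, 183 and 193 CPM, and the 5 DEX_Load libraries measured 64.5, 69.1, 87.5, 131 and 132 CPM. The upper 2 DEX_Load libraries, replicates 1 and 2, reached into the range of the vehicle libraries, and the other 3 lay below it. The log2 fold change was -0.68 (SE 0.213, 95% interval -1.14 to -0.22), an expression 1.60-fold lower, with an adjusted p of 0.0397 in edgeR's quasi-likelihood test.

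Pdgfrb encodes the receptor beta, which binds the B and D chains and is used by perivascular cells. Vehicle_Load measured 139, 147, 150, 173 and 208 CPM, and DEX_Load measured 67.9, 93.1, 104, 126 and 135 CPM. Here all 5 DEX_Load libraries lay below all 5 vehicle libraries, a separation downward that 8.85% of the genes tested showed. This gave a log2 fold change of -0.60 (SE 0.182, 95% interval -0.99 to -0.20), or 1.51-fold lower, with an adjusted p of 0.0360.

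Neither call was firm. Without DEX_Load replicate 4, Pdgfra had a log2 fold change of -0.59 and an adjusted p of 0.0732, and Pdgfrb one of -0.49 with an adjusted p of 0.0493. Adjusted p rose above the threshold for both genes without DEX_Load replicate 3 (0.0805 for Pdgfra and 0.0652 for Pdgfrb), DEX_Load replicate 5 (0.0685 and 0.0631), Vehicle_Load replicate 1 (0.0687 and 0.0748) or the unnumbered Vehicle_Load library (0.0762 and 0.0655). Both also missed it with at least 10 counts required in every library (0.0729 and 0.0611) and with the replicate number as a block (0.102 and 0.0797), where the log2 fold changes stayed at -0.665 and -0.63. Every block fit kept only libraries whose number occurs in both groups. On those libraries without the block, adjusted p was 0.146 for Pdgfra and 0.119 for Pdgfrb. With the background reads as a covariate the log2 fold changes shrank to -0.37 (adjusted p 0.722) and -0.19 (adjusted p 0.854), and since the background ranges of the groups did not overlap, background and treatment cannot be told apart.

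Lepr encodes the receptor of the fat hormone leptin and is the usual label of this stromal cell. Vehicle_Load measured 90.4, 91.7, 92.5, 102 and 105 CPM, a narrow range, and DEX_Load measured 37.8, 47.1, 66.5, 88.8 and 91.5 CPM. DEX_Load replicates 3, 4 and 5 lay well below every vehicle library, replicate 1 lay just below the lowest of them, and replicate 2 lay within their range. The log2 fold change of -0.50 (SE 0.208, 95% interval -0.95 to -0.05) had an unadjusted p of 0.0319 and an adjusted p of 0.100, and did not pass. Of 19 alternative fits, which hold the fit without DEX_Load replicate 4 under 2 settings, Lepr passed in 2. These were the fit without DEX_Load replicate 2 (adjusted p 0.0311) and a single model of the 4 groups (-0.58, adjusted p 0.0427). Its log2 fold change was -0.36 (adjusted p 0.152) without DEX_Load replicate 4, and with background reads as a covariate it was -0.13 (adjusted p 0.921).

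Vcam1, whose product holds blood cells through integrins and is also present on marrow macrophages and activated endothelium, measured 231 to 289 CPM in Vehicle_Load and 112, 140, 177, 249 and 279 CPM in DEX_Load. Replicates 3, 4 and 5 lay below the vehicle libraries and replicates 1 and 2 among them. Its log2 fold change was -0.38 (95% interval -0.85 to 0.10, adjusted p 0.226), and it was -0.25 without DEX_Load replicate 4 and -0.08 (adjusted p 0.954) with background reads as a covariate. With 1 library left out it ran from -0.58 to -0.25, with a lowest adjusted p of 0.057.

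Of the factors, Kitl measured 60.1 to 81.0 CPM in Vehicle_Load and 34.8 to 82.6 CPM in DEX_Load, with a log2 fold change of -0.32 (95% interval -0.71 to 0.07, adjusted p 0.217). Its highest value of all 20 libraries, 82.6 CPM, came from DEX_Load replicate 2. Without that library the log2 fold change of Kitl was -0.55 and its adjusted p 0.0229. Il7 measured 2.13 to 5.01 CPM in Vehicle_Load and 1.75 to 5.04 CPM in DEX_Load, with a log2 fold change of -0.11 and an interval from -0.88 to 0.66. The values without DEX_Load replicate 4 were -0.21 for Kitl and -0.37 for Il7.

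Of the transcription factors, Ebf3 measured 40.4 to 86.6 CPM in Vehicle_Load and 29.6 to 67.2 CPM in DEX_Load, a log2 fold change of -0.35 (95% interval -0.84 to 0.15, adjusted p 0.284), or -0.23 without DEX_Load replicate 4. Foxc1 measured 37.8 to 57.2 and 33.5 to 49.5 CPM, a log2 fold change of -0.20 (95% interval -0.51 to 0.10, adjusted p 0.310). Of the 7 genes other than Il7, Foxc1 thus had the smallest fitted difference and the narrowest interval. With 1 library left out the values ran from -0.53 to -0.23 for Ebf3 and from -0.32 to -0.16 for Foxc1. The lowest adjusted p among these fits was 0.105 for Ebf3 and 0.119 for Foxc1. For both genes and for Kitl the fitted difference turned positive with background reads as a covariate, at 0.48 for Ebf3, 0.09 for Foxc1 and 0.29 for Kitl, none past the threshold.

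**Figure D3:**
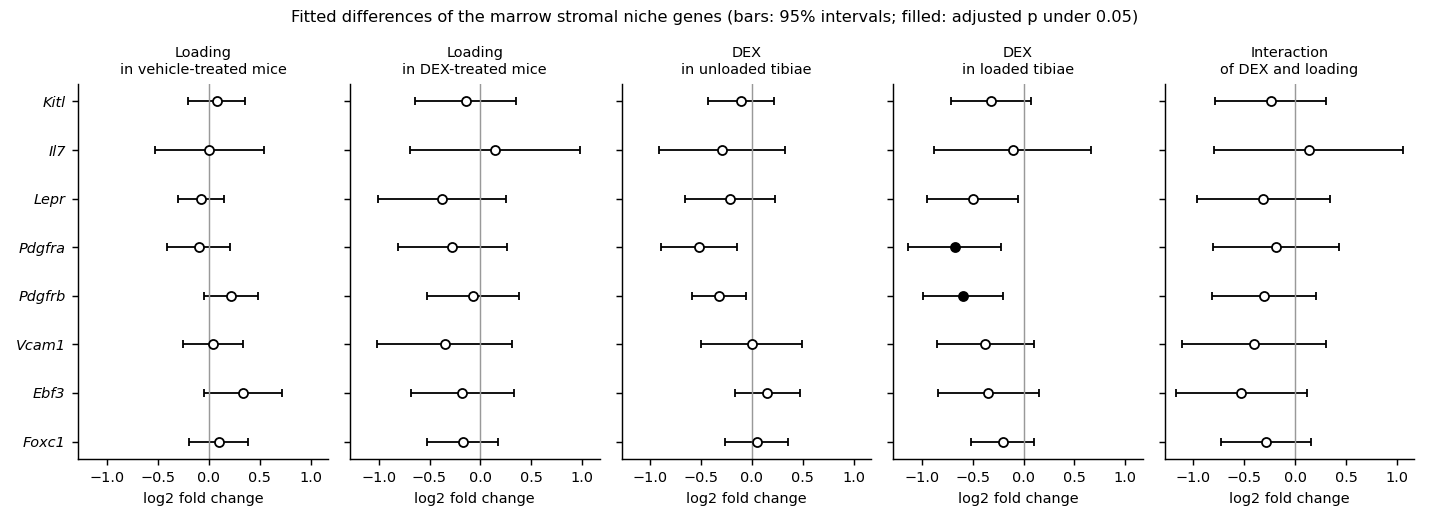
Fitted log2 fold changes (horizontal axes) of the 8 genes in the 4 comparisons and the interaction, with 95% intervals as bars; filled points have an adjusted p under 0.05. Pdgfra and Pdgfrb are filled in loaded tibiae, where all 8 points lie below 0, and no other point is filled.

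In unloaded tibiae none of the 8 genes passed the test for DEX against vehicle, where 6.84% of 19738 genes were called, 2.86% as higher and 3.99% as lower. At an unadjusted p under 0.05, 2 of the 8 passed by edgeR, as did 24.6% of all genes, and DESeq2 called 1 of the 8, Pdgfra, among 2411 of 19738 genes. Neither count is a result about the genes as a set. The median log2 fold change was -0.16 over the 8 genes and 0.03 over all genes tested.

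Pdgfra again had the largest fitted difference. Vehicle_Ctrl measured 129, 159, 165, 181 and 202 CPM, and the 4 DEX_Ctrl libraries tested measured 89.4, 95.4, 128 and 151 CPM, so that only replicate 1 of DEX_Ctrl entered the vehicle range. The log2 fold change was -0.52 (SE 0.173, 95% interval -0.90 to -0.14) with an unadjusted p of 0.0107 and an adjusted p of 0.0910. Of 18 alternative fits it passed in 3, with an adjusted p of 0.0388 with DEX_Ctrl replicate 4 included, 0.0429 in DESeq2's Wald test and 0.0492 without DEX_Ctrl replicate 1. In the other fits adjusted p ran up to 0.482, with the replicate block, where the log2 fold change was -0.36. The libraries of the block fitted without the block also gave -0.36, with an adjusted p of 0.391. Without DEX_Ctrl replicate 3 the adjusted p was 0.268.

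Pdgfrb measured 112, 131, 143, 151 and 152.5 CPM in Vehicle_Ctrl and 99.7, 108, 114 and 115 CPM in DEX_Ctrl. The DEX_Ctrl libraries were tightly grouped, with an SD of 7.01 CPM, and 2 of them lay above the lowest vehicle library. The fitted log2 difference was -0.32 (SE 0.123, 95% interval -0.59 to -0.05), with an unadjusted p of 0.0222 and an adjusted p of 0.132. It was -0.19 both with the replicate block and with the block's libraries and no block.

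The fitted values of Lepr, Vcam1, Kitl, Ebf3 and Foxc1 lay nearer to vehicle than those of Pdgfra and Pdgfrb, a contrast that was not tested. Il7, which was close to the background, had a log2 fold change of -0.29 (95% interval -0.91 to 0.33). Lepr measured 84.5 to 116 CPM in Vehicle_Ctrl and 50.5, 71.8, 103 and 117 CPM in DEX_Ctrl, where replicate 1 lay within the vehicle range, replicate 2 at its upper end, and replicates 3 and 5 lay below it (log2 fold change -0.21, 95% interval -0.65 to 0.23). With 1 library left out the value for Lepr ran from -0.41, without DEX_Ctrl replicate 2, to -0.054, without DEX_Ctrl replicate 5. Vcam1 measured 189 to 303 CPM in Vehicle_Ctrl, and in DEX_Ctrl replicates 1 and 3 lay within that range at 302 and 213 CPM, replicate 2 above it at 319 CPM and replicate 5 below it at 134 CPM, with a fitted log2 fold change of -0.00 (95% interval -0.50 to 0.49). Kitl had a log2 fold change of -0.11 (95% interval -0.44 to 0.22), Ebf3 of 0.15 (-0.17 to 0.47) and Foxc1 of 0.04 (-0.26 to 0.35). With 1 library left out the values ran from -0.23 to -0.033 for Kitl, from 0.01 to 0.25 for Ebf3, from -0.034 to 0.14 for Foxc1 and from -0.18 to 0.17 for Vcam1. Leaving out DEX_Ctrl replicate 2 gave the lowest value of all 4 genes. These intervals do not show that the levels were alike.

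Whether loading changed these genes was asked in each treatment and as a difference between treatments. In vehicle-treated mice none of the 17982 genes tested was called (0%), and the same held for the 22541 genes in DEX-treated mice (0%) and for the 23653 genes of the interaction (0%), all by edgeR. At an unadjusted p under 0.05 there were 1773, 958 and 2859 genes, of which 0 were among the 8, and DESeq2 called 141, 0 and 50 genes and again 0 of the 8.

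Ebf3 had the largest fitted loading difference in vehicle-treated mice. Vehicle_Ctrl measured 42.95, 45.5, 49.6, 49.9 and 56.8 CPM, and Vehicle_Load measured 40.4, 50.4, 60.1, 77.2 and 86.6 CPM. Vehicle_Load replicates 1 and 2 lay far above all unloaded libraries, and replicate 4 lay below them. Loading had a fitted log2 fold change of 0.33 (SE 0.177, 95% interval -0.05 to 0.72) with an adjusted p of 0.542, and of 0.20 without Vehicle_Load replicate 1 and 0.135 with background reads as a covariate. Pdgfrb had a log2 fold change of 0.22 (95% interval -0.05 to 0.48, adjusted p 0.557), and the other 6 ran from -0.10 for Pdgfra to 0.10 for Foxc1. With 1 library left out the value of Pdgfrb ran from 0.13 to 0.27, and other alternatives reached down to 0.11.

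In DEX-treated mice 7 of the 8 fitted loading differences were below 0, and Lepr at -0.38 (95% interval -1.002 to 0.25, adjusted p 0.733) and Vcam1 at -0.35 (-1.01 to 0.31) were the largest. These were -0.21 and -0.19 without DEX_Load replicate 4, and without DEX_Ctrl replicate 2 they were -0.20 for both. The difference between the loading responses of the 2 treatments, DEX minus vehicle, was -0.53 for Ebf3 (SE 0.309, 95% interval -1.17 to 0.11, adjusted p 0.437), -0.40 for Vcam1, -0.31 for Lepr and for Pdgfrb, -0.29 for Foxc1, -0.24 for Kitl, -0.19 for Pdgfra and 0.13 for Il7. They moved in both directions with 1 library left out, from -0.68 to -0.38 for Ebf3, -0.63 to -0.25 for Vcam1, -0.53 to -0.14 for Lepr, -0.40 to -0.17 for Pdgfrb, -0.38 to -0.20 for Foxc1, -0.43 to -0.11 for Kitl, -0.33 to -0.056 for Pdgfra and -0.10 to 0.38 for Il7. The lowest values of Ebf3, Vcam1 and Lepr came without DEX_Ctrl replicate 5, that of Kitl without DEX_Load replicate 2, those of Pdgfra and Pdgfrb without DEX_Load replicate 1 and that of Il7 without DEX_Load replicate 4, where Lepr and Pdgfrb were at -0.17, Kitl at -0.11 and Pdgfra at -0.09. The intervals with all libraries included 0 for each gene, for example from -1.11 to 0.30 for Vcam1 and from -0.97 to 0.34 for Lepr.

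The partners that bind the 8 gene products were read from a list of 12 ligand and receptor genes. In loaded tibiae 5 of them fell with DEX, 1 rose and 6 did not pass, with a list median of -0.56 on the log2 scale. In unloaded tibiae 3 fell, 1 rose and 8 did not pass, with a median of -0.37. Without DEX_Load replicate 4 the loaded counts were 5 lower and 0 higher. The unloaded calls were less stable, with 0 lower and 1 higher without DEX_Ctrl replicate 3, and 5 lower and 2 higher with DEX_Ctrl replicate 4 included.

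Among the ligands of the PDGF receptors, Pdgfa fell by 1.01 in loaded (adjusted p 0.00648) and by 0.68 in unloaded tibiae (adjusted p 0.0347), where its call held in 4 of 9 fits with 1 library left out. Pdgfa measured 27.2, 29.8, 30.5, 33.9 and 37.65 CPM in Vehicle_Load and 8.98, 11.7, 17.15, 17.2 and 21.4 CPM in DEX_Load, so that the groups were apart. Pdgfc fell by 0.85 in loaded tibiae (adjusted p 0.00225), from 27.2 ± 2.05 to 14.7 ± 2.58 CPM, and the groups did not overlap. Pdgfd fell by 0.98 in unloaded tibiae (adjusted p 0.0116, and 0.0607 without DEX_Ctrl replicate 3), from 43.1 ± 9.10 to 21.6 ± 3.14 CPM, without overlap. Pdgfb, the chain that platelets and endothelium make, passed in neither comparison and measured 14.7 ± 3.69, 19.2 ± 3.89, 16.1 ± 2.17 and 15.3 ± 0.573 CPM in Vehicle_Ctrl, Vehicle_Load, DEX_Ctrl and DEX_Load. With background reads as a covariate, the loaded values were -0.62 for Pdgfa (adjusted p 0.439) and -0.73 for Pdgfc (adjusted p 0.204). The unloaded call of Pdgfa was also lost with the covariate (adjusted p 0.0569) and with the replicate block (-0.425, adjusted p 0.287), and that of Pdgfd with the block (adjusted p 0.0530). The block fits hold fewer libraries than the main fit. Pdgfb, Il2rg and Itga9 were chosen for naming after their values were seen, to complete the list.

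Lep, which encodes leptin and is made by adipocytes, rose with DEX while the receptor gene Lepr did not pass. The unloaded vehicle libraries measured 1.42, 2.20, 2.30, 2.86 and 3.18 CPM and the DEX_Ctrl libraries 8.56, 10.4, 13.3 and 19.5 CPM, a log2 fold change of 2.46 (adjusted p 0.00386) with no overlap. In loaded tibiae it was 1.99 (adjusted p 0.0473), and the groups overlapped, because Vehicle_Load replicate 1 measured 9.39 CPM and DEX_Load replicate 5 measured 2.60 CPM. With 1 library left out, the call in loaded tibiae held only without DEX_Load replicate 3 or 5 or Vehicle_Load replicate 1. Leaving out any other library of the 10 lost it, with adjusted p up to 0.120. Of 8 other alternative fits it held in 5, with adjusted p up to 0.584.

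Il7r, which encodes the receptor chain through which IL7 acts on lymphoid progenitors, fell while Il7 itself stayed too low to read. It measured 16.4, 16.9, 18.01, 20.9 and 27.7 CPM in Vehicle_Ctrl against 3.93, 6.92, 8.93 and 14.4 CPM in DEX_Ctrl, a log2 fold change of -1.23 (adjusted p 0.0323) with no overlap, a call that held in 4 of 9 fits with 1 library left out, with adjusted p from 0.0145 to 0.124. In loaded tibiae the log2 fold change was -1.69 (adjusted p 0.00470), with Vehicle_Load replicate 1 at 8.75 CPM inside the DEX_Load range of 5.02 to 9.31 CPM. Il2rg, the partner chain of the IL7 receptor, fell by 0.58 in loaded tibiae (adjusted p 0.0245, and 0.0547 without DEX_Load replicate 3). With background reads as a covariate neither passed in loaded tibiae (adjusted p 0.188 for Il7r and 0.584 for Il2rg), and the unloaded call of Il7r was lost with the covariate (0.0523) and with the replicate block (0.0672).

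Kit, the receptor of KITL on hematopoietic stem and progenitor cells and mast cells, did not pass, with log2 fold changes of 0.26 in unloaded and 0.10 in loaded tibiae. Its levels were 41.3 ± 5.85, 39.8 ± 7.72, 48.6 ± 4.18 and 41.4 ± 10.6 CPM in Vehicle_Ctrl, Vehicle_Load, DEX_Ctrl and DEX_Load. Itga4, the integrin subunit that binds VCAM1, did not pass either (log2 fold changes of 0.10 and -0.25), whereas Itga9, another VCAM1-binding subunit, fell by 0.60 in loaded tibiae (adjusted p 0.00809, and 0.427 with background reads as a covariate).

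**Figure D4:**
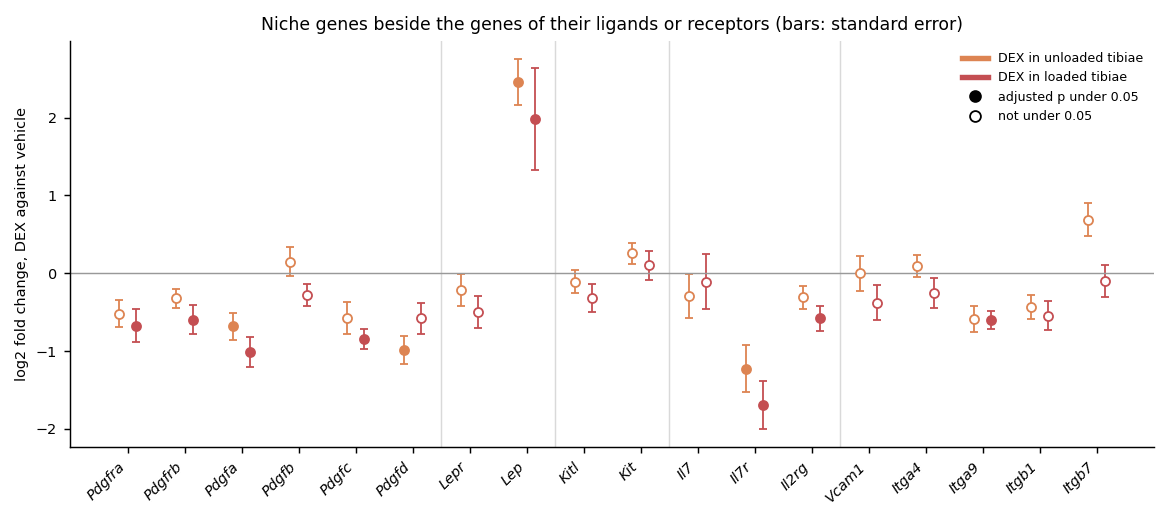
Log2 fold changes of DEX against vehicle (vertical axis, bars give the standard error) of the 6 genes that have a listed partner, beside the genes of their ligands or receptors, in unloaded (orange) and loaded (red) tibiae. Filled points have an adjusted p under 0.05; Pdgfa, Lep and Il7r are filled in both comparisons, and Kit in neither.

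A list of 20 further genes of marrow stromal niche cells was read beside them. In loaded tibiae 7 fell, 1 rose and 12 did not pass, and the median log2 fold change was -0.44; in unloaded tibiae 3 fell, 1 rose and 16 did not pass, with a median of -0.16. Without DEX_Load replicate 4 the loaded counts were 4 lower and 1 higher. The unloaded counts were 0 lower and 1 higher without DEX_Ctrl replicate 3, and 5 lower and 1 higher with DEX_Ctrl replicate 4 included. Hp, which encodes haptoglobin, rose in both, by a log2 fold change of 1.001 in loaded (adjusted p 0.0130) and 1.58 in unloaded tibiae (adjusted p 0.00386). Cdh11, a cadherin of mesenchymal cells, fell by 0.995 in loaded (adjusted p 0.00594) and by 0.69 in unloaded tibiae (adjusted p 0.0376, held in 2 of 9 fits with 1 library left out), and Ebf1, a relative of Ebf3, fell by 0.96 in loaded tibiae (adjusted p 0.0175). With background reads as a covariate, none of these 3 passed in loaded tibiae, at 1.60 for Hp (adjusted p 0.0794), -0.63 for Cdh11 (0.369) and -0.34 for Ebf1 (0.750), and Hp also missed the threshold there with the replicate block (0.0805). The unloaded call of Cdh11 was lost with the covariate (0.0546) and the block (0.269). Prrx1, a transcription factor of limb mesenchyme, fell by 0.69 in unloaded tibiae (adjusted p 0.0152, 0.0762 without DEX_Ctrl replicate 3 and 0.145 with the block). Cxcl12 did not pass in either, at 0.08 in unloaded (adjusted p 0.838) and -0.46 in loaded tibiae (adjusted p 0.145). The summed level of the list was 3537 to 5461 CPM in Vehicle_Load and 1947 to 3889 CPM in DEX_Load, and 3211 to 4098 CPM in Vehicle_Ctrl against 3095 to 4050 CPM in DEX_Ctrl.

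Of 10 surface genes of skeletal stem and perivascular cells, 3 fell in loaded tibiae, namely Cspg4 by 0.96 (adjusted p 0.00424), Mcam by 0.87 (adjusted p 0.0194) and Itgav by 0.75 (adjusted p 0.00990), and 1 rose. With background reads as a covariate these 3 did not pass, at -0.72 (adjusted p 0.270), -0.23 (adjusted p 0.839) and -0.32 (adjusted p 0.593), and Mcam also missed the threshold with the replicate block (adjusted p 0.0529). In unloaded tibiae 1 of the 10 fell, Cspg4 by 0.64 (adjusted p 0.0491), a call that held in 1 of 9 fits with 1 library left out and was lost with the covariate (-0.45, adjusted p 0.105) and the block (-0.31, adjusted p 0.417). Cspg4, which encodes NG2, and Mcam are used to mark pericytes. A list of 10 pericyte and smooth muscle genes had 0 of 9 tested called in loaded and 1 of 10 in unloaded tibiae. Its median log2 fold changes were -0.21 and -0.80. Its sum was 651.9 to 1619 CPM in Vehicle_Load and 826.8 to 1702 CPM in DEX_Load. In unloaded tibiae it was 703.3 to 2305 CPM in Vehicle_Ctrl and 510.1 to 1142 CPM in DEX_Ctrl. A part of pericytes in these falls was not tested.

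Markers of other tissues moved in the same comparisons, and their part in the results above was not tested. In loaded tibiae 8 of 10 osteoblast genes fell, with a sum of 64780 to 96470 CPM in Vehicle_Load and 5082 to 24310 CPM in DEX_Load. Of 10 periosteum and tendon genes 6 fell and 1 rose, from sums of 2236 to 4653 CPM to 619.5 to 1615 CPM. Of 9 chondrocyte genes tested 8 fell, from 2028 to 3733 CPM to 184.6 to 780.5 CPM. In contrast, 9 of 10 neutrophil genes rose, from 4292 to 6342 CPM to 7259 to 17320 CPM.

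B lineage genes, those of the cells that depend on IL7, fell in both comparisons, 8 of 10 in loaded and 7 of 10 in unloaded tibiae. Rag1, part of the recombinase of developing lymphocytes, fell by 2.59 in loaded (adjusted p 0.000769) and by 2.62 in unloaded tibiae (adjusted p 0.00781), and Vpreb3 by 2.39 and 2.05. Their sum was 139.6 to 310.4 CPM in Vehicle_Load against 30.66 to 98.17 CPM in DEX_Load. Of 10 macrophage genes 3 fell in loaded tibiae and 0 in unloaded tibiae, with sums of 609.3 to 835.1 CPM in Vehicle_Load and 311 to 740.8 CPM in DEX_Load. Of 10 endothelial genes 1 fell in each, and of 10 adipocyte genes 4 rose in loaded and 1 in unloaded tibiae. Without DEX_Ctrl replicate 3, 0 endothelial genes fell and 0 adipocyte genes rose in unloaded tibiae. With DEX_Ctrl replicate 4 included, 2 endothelial genes fell and 3 adipocyte genes rose there. In unloaded tibiae 6 of 10 osteoblast genes fell and 8 of 10 neutrophil genes rose, and without DEX_Ctrl replicate 3 these counts were 0 and 1 and that of the B lineage was 1. Without DEX_Load replicate 4 the loaded counts of these 3 lists stayed at 8, 9 and 8, whereas 7 of 9 chondrocyte genes fell and 2 of 10 adipocyte genes rose. Of 8 osteocyte genes 5 fell and 1 rose in loaded tibiae, 1 of 10 muscle genes rose, 0 of 9 erythroid genes tested were called, and 2 of 5 glucocorticoid induced genes rose; without DEX_Load replicate 4 these counts were 3 lower and 0 higher, 0, 0 and 2 higher. The unloaded counts of these 4 lists were 3 lower, 1 lower, 0 and 1 lower, all 0 without DEX_Ctrl replicate 3, and with DEX_Ctrl replicate 4 included 5 of 7 osteocyte and 5 of 10 muscle genes were lower and 1 glucocorticoid induced gene was called in each direction. The muscle genes summed to 8780 to 40030 CPM in Vehicle_Ctrl and 2641 to 18540 CPM in DEX_Ctrl. In loaded tibiae they summed to 4227 to 21090 CPM with vehicle and 8152 to 23380 CPM with DEX. Their median log2 fold changes with DEX were -1.76 in unloaded and 0.50 in loaded tibiae. None of the genes listed for these tissues was at 0 in all libraries of a group.

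Across the 20 libraries, Kitl, Ebf3 and Foxc1 varied together with Cxcl12. Among 22659 genes, Cxcl12 had the highest Pearson correlation of log2 CPM with Kitl (r = 0.901) and with Ebf3 (r = 0.912), and it was the second highest for Foxc1 (r = 0.861). Without DEX_Load replicate 4, which had the lowest Cxcl12 level of 520.3 CPM, the values over 19 libraries were 0.838, 0.878 and 0.851. The highest Cxcl12 values, 1430 and 1339 CPM, came from Vehicle_Load replicates 1 and 2, which were also the highest for Ebf3. With Il7 the value was -0.003, and 0.355 without DEX_Load replicate 4. The libraries share depth, tissue pieces and background, so these correlations describe the libraries and carry no test.

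The other genes had other neighbours. Lepr was closest to H2-Aa, an MHC class II gene (r = 0.948), Zeb2 (0.946) and Myo9a (0.943), and Vcam1 was closest to Lepr (0.936), Zeb2 (0.926) and Selenop (0.922). Pdgfra was closest to Dcn, which encodes the matrix proteoglycan decorin (0.959), Olfml3 (0.951) and the macrophage gene C1qc (0.950). Pdgfrb was closest to Rhbdf1 (0.953), Lrp1 (0.952) and Arhgef25 (0.947), and with Cxcl12 Lepr, Vcam1, Pdgfra and Pdgfrb had values of 0.767, 0.778, 0.590 and 0.653, or 0.638, 0.666, 0.452 and 0.458 without DEX_Load replicate 4. After Cxcl12, Kitl was closest to Arrdc4 (0.870) and Esm1 (0.858), and Ebf3 to Esm1 (0.870) and Foxc1 (0.861), while Foxc1 was closest to Ism1 (0.869). Among the 21 pairs without Il7, r ran from 0.511 to 0.936, and among the 7 pairs with Il7 from -0.046 to 0.219. Il7 was closest to Gm44415 (0.764), Gpr161 (0.763) and Rtkn (0.762), at counts that leave much of its variation to sampling.

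**Figure D5:**
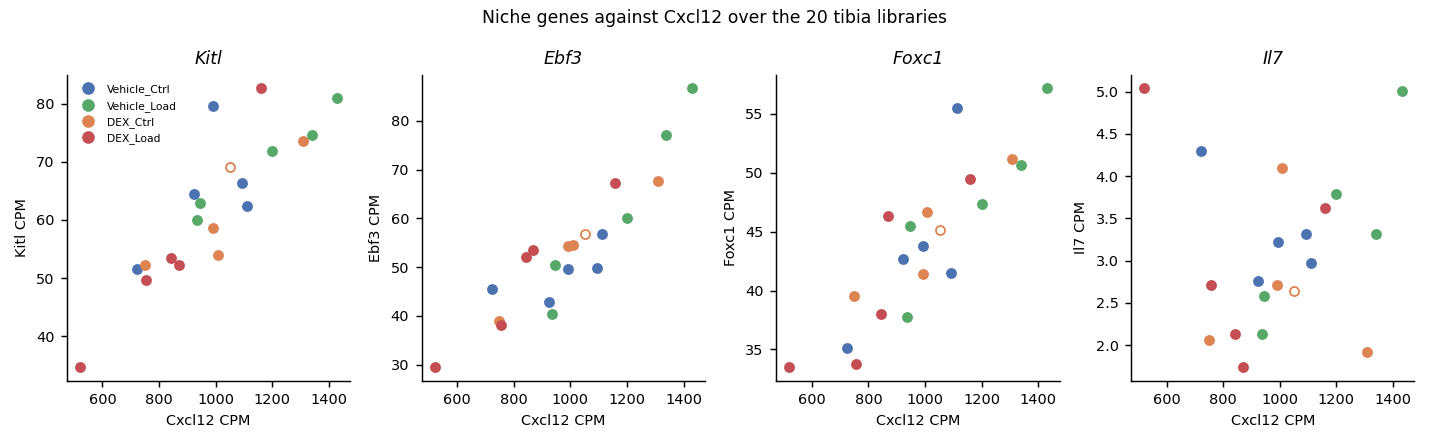
CPM of Kitl, Ebf3, Foxc1 and Il7 (vertical axes) against CPM of Cxcl12 (horizontal axes) in the 20 libraries, coloured by group, with DEX_Ctrl replicate 4 as the open point. Kitl, Ebf3 and Foxc1 increase with Cxcl12 (r = 0.901, 0.912 and 0.861 on the log2 scale), whereas the value for Il7 is -0.003, and 0.355 without DEX_Load replicate 4.

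The promoters of the 3 genes with the highest correlations with Cxcl12, and of Pdgfra, a receptor gene that fell, are shown for reference, as RefSeq gives them on GRCm38.p6 from 250 bases before to 50 bases after the start, 5′ to 3′ on the gene's strand. Kitl is at chr10:100015571-100015870 (plus strand), Ebf3 at chr7:137314396-137314695 (minus strand), Foxc1 at chr13:31806396-31806695 (plus strand) and Pdgfra at chr5:75152001-75152300 (plus strand). Capitals mark matches to the motifs named after the sequences.
Kitl: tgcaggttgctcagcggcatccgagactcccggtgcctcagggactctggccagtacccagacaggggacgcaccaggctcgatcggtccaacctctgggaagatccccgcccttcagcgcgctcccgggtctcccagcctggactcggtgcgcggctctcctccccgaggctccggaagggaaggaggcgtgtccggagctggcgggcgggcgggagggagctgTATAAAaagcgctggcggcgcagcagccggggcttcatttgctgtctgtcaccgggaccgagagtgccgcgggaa
Ebf3: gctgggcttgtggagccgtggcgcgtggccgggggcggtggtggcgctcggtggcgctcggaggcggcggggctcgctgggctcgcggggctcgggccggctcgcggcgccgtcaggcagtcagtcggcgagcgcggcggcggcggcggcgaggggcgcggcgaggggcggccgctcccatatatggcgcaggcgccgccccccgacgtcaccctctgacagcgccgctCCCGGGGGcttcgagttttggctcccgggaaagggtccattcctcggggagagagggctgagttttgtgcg
Foxc1: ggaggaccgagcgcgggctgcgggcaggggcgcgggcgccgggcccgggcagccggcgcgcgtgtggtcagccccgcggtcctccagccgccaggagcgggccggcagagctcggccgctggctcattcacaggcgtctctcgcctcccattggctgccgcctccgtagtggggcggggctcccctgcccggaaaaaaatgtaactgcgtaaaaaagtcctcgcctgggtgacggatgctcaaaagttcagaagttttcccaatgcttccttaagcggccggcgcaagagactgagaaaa
Pdgfra: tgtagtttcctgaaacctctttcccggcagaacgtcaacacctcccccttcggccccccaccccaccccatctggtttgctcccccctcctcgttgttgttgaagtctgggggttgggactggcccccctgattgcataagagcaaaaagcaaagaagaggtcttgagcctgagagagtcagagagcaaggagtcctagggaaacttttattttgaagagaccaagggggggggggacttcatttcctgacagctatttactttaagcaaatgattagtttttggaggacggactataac

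The letters searched on both strands were AGAACA, the repeat unit bound by the glucocorticoid receptor, CCCNNGGG, the core of EBF sites, which reads alike on both strands, TAAACA, a forkhead core, and TATAAA, the TATA box. Matches were found in 19%, 13.7%, 13.4% and 13.6% of 32851 mouse promoters of this length. Kitl held a TATA box starting 25 bases before the start, and Ebf3 held an EBF core, CCCGGGGG, starting 21 bases before it. No match was found in the windows of Foxc1 and Pdgfra, nor in those of Lepr, which has 2 starts in the table, and this says only that these letters are not in these windows. The GC content was 68.7% for Kitl, 77.0% for Ebf3, 67.3% for Foxc1 and 51.0% for Pdgfra, and the median of all promoters was 52.7%.

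By the gene models of GENCODE on GRCm38, Lepr lies on chromosome 4 (101717404 to 101815352, plus strand), Kitl on chromosome 10 (100015630 to 100100416, plus), Il7 on chromosome 3 (7569994 to 7613760, minus), Ebf3 on chromosome 7 (137193673 to 137314445, minus), Foxc1 on chromosome 13 (31806633 to 31812476, plus), Pdgfra on chromosome 5 (75152292 to 75198215, plus), Vcam1 on chromosome 3 (116109949 to 116129688, minus) and Pdgfrb on chromosome 18. All are protein-coding, and Foxc1 has a single exon. Antisense or unclassified models overlap exons of Pdgfra (456 and 166 bases), Ebf3 (355 bases), Il7 (105 bases) and Vcam1 (61 bases), each model covering at most 4.55% of the gene's exonic length. The kit keeps the strand, but the strand setting of the counting is not given in the sources used here, so reads of these overlaps may be counted for either gene.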

How the data were processed

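The authors deposited 1 table of expected counts per gene for the 20 tibia libraries. The submitters' processing notes name STAR 2.7.10a, RSEM 1.2.28 and GRCm38. The values are estimated counts, not normalized, and were rounded to whole numbers here. The strand setting is not given in the sources used here. Of the gene rows, 54409 were matched to GENCODE M21 without the version suffix and 53229 with it.

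Low counts were removed with filterByExpr, libraries were scaled by TMM, and each comparison was tested with the quasi-likelihood test of edgeR 4.0.16 (R 4.3.3), with Benjamini-Hochberg adjustment over all genes tested and a threshold of 0.05. DESeq2 1.42.0 was an alternative. CPM used TMM-scaled library sizes. Correlations were taken on the log2 scale of CPM, the prior count being 2. Depths ranged from 4641425 to 13031968 counts. Libraries of a group differed by 7.38 to 93.4 times the counting error, which is more than sampling noise, and each was counted as 1 sample. The sources do not say whether libraries of a group come from separate extractions in all cases, and p-values measure the spread between these libraries.

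The 8 genes and the 16 lists were chosen with earlier results of these data known. Genes of a list were named as the 3 largest changes past the threshold, with Cxcl12, Kit, Il7r and Itga4 always, and for each of the 8 genes the 3 most correlated genes were named. Other libraries, filters, scalings, a background covariate, a joint model and a replicate block were tried as alternatives. The replicate block kept only libraries whose number occurs in both groups compared. A call lost with the block thus cannot be told apart from a call lost through fewer libraries. For DEX against vehicle a shared number joins different mice, so there the block matches no animals. The fits with both DEX libraries numbered 4 left out, with the block's libraries but no block, and the list counts and spread without single libraries were added after the data were seen. DEX_Ctrl replicate 4 was left out because the study removed a DEX-4 library, and no source says whether it was loaded.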

Additional observations from a re-analysis of the deposited data

How the results depend on the processing

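Of 832 alternative values of the 8 genes, 761 kept direction and side of the threshold, 47 reversed, 6 passed newly and 18 were lost. Settings that left the same libraries were counted separately. Only Pdgfra and Pdgfrb in loaded tibiae passed in the main fits, so all 18 losses are theirs. Pdgfra kept its call in 5 of 10 fits with 1 library left out and in 4 of 9 other alternatives. Pdgfrb kept it in 6 of 10 and 5 of 9. Most of the 761 were values that passed in neither fit. The cause was not tested for any change below. The deviations of same-numbered loaded and unloaded libraries from the group means correlated at -0.339 to 0.274 in vehicle-treated and at 0.007 to 0.379 in DEX-treated mice, and for 2 of the 8 numbers the unloaded library correlated best with its own number. No source ties a number to a mouse, so the numbers were not taken as pairs, and the replicate block is given as an alternative.

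In loaded tibiae DEX called 2 of the 8 genes, but 3 with all 4 groups in the same model (Lepr added, adjusted p 0.0427). It called 0 with at least 10 counts in every library and 0 with the background covariate. With the replicate block it called 0, and with the block's libraries and no block 0. Leaving out DEX_Load replicate 4 gave 1, and leaving it out in place of DEX_Ctrl replicate 4 is the same fit here. With single libraries left out DEX called 0 to 4. In unloaded tibiae it called 0, and 1 by DESeq2, 1 with all 20 libraries and 0 to 1 with single libraries left out. Over all genes, the 4206 calls in loaded tibiae became 9016 with no filter, 8446 with all 4 groups in the same model, 2326 with the replicate block, 1120 with the block's libraries and no block, 2203 with the strict filter, 31 with the covariate and 2696 to 5822 with single libraries left out. The 1351 calls in unloaded tibiae became 2411 by DESeq2, 2922 with all 20 libraries, 520 with the block, 566 with its libraries and no block, 2657 with the covariate and 129 to 1867 with single libraries left out, the lowest without DEX_Ctrl replicate 3, with 1287 without DEX_Ctrl replicate 1. Loading in vehicle-treated mice had 141 calls by DESeq2, 50 with no filter, 4 with all 4 groups and 0 to 4 with single libraries left out. Loading in DEX-treated mice had 0 to 39 and the interaction 0 to 54 with single libraries left out, the highest without DEX_Ctrl replicate 5, and the interaction had 50 by DESeq2 and 1 with no filter.

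The log2 fold change of Il7 for loading in vehicle-treated mice reversed to -0.13 with the block, -0.075 with its libraries and no block and -0.22 with the covariate (-0.17 to 0.13 with single libraries left out, -0.035 and -0.029 without the unnumbered Vehicle_Ctrl and Vehicle_Load libraries). For loading in DEX-treated mice, leaving out both libraries numbered 4 is the same fit as the block's libraries without the block. Il7 became -0.057 there with DEX_Load replicate 4 left out in place of DEX_Ctrl replicate 4, and -0.056 with both left out. It became -0.039 with the block and -0.028 with the covariate (-0.056 to 0.39). Pdgfrb became 0.036, 0.068, 0.059 and 0.052 in the same order (-0.16 to 0.068). Kitl became 0.071 with the covariate. In unloaded tibiae Foxc1 became -0.017 with no filter and -0.006 with all 4 groups (-0.034 to 0.14, and 0.074 without DEX_Ctrl replicate 3), Vcam1 0.03 with the strict filter (-0.18 to 0.17, and 0.035 without the unnumbered Vehicle_Ctrl library), Cxcl12 -0.004 with the block (-0.078 to 0.17) and Mcam 0.27 with the block, 0.28 with its libraries and 0.19 with the covariate (-0.34 to 0.17), while Itga4 ran from -0.003 to 0.13. In loaded tibiae Il7 became 0.006 with the strict filter and 0.004 with the block's libraries (-0.37 to 0.038), Kit -0.064 with no filter, and with the covariate Kitl became 0.29, Ebf3 0.48, Foxc1 0.09 and Cxcl12 0.24. The interaction of Il7 became -0.078 with DEX_Load replicate 4 left out in place of DEX_Ctrl replicate 4, -0.10 without both libraries numbered 4 and -0.001 with the block's libraries (-0.10 to 0.38), and that of Kitl 0.032 with the covariate. Vcam1 for loading in vehicle-treated mice ran from -0.034 to 0.145.

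Without TMM scaling the mean CPM moved by more than 1 SD for Lepr (87.6 in Vehicle_Ctrl and 87.83 in Vehicle_Load), Ebf3 (43.04 in Vehicle_Ctrl), Pdgfrb (120.9 in Vehicle_Ctrl and 117.5 in DEX_Ctrl) and Vcam1 (232.5 in Vehicle_Load). Depth limits Il7, with 13 to 55 counts.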
